A study of Mus musculus with 17 samples.

Results

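Sorted cell populations of the mouse embryonic cortex were compared by array: cells with high and cells with low green fluorescence, taken from hGFAP-eGFP embryos at embryonic day 14 (E14), in sorts whose titles name no gate for Prominin. The arrays were those titled E14 cortex GFPhigh or GFPlow with no further marker, which gave 6 of the 17 arrays of the series: GFP-high cells (n = 3) and GFP-low cells (n = 3). In these mice a human GFAP promoter drives enhanced green fluorescent protein (GFP), and both populations carry the transgene and come from the same region and age. The labels give no sex and no strain, and they do not state whether samples of a group are separate litters. The p-values therefore reflect the scatter among these samples alone, which may be technical. The labels name the MessageAmp II kit for GFP-high replicate 1 and an Affymetrix labelling kit for the other 5 arrays. Of the other 11 arrays, 7 are E14 GFP-high and GFP-low cells that were also selected for Prominin. The other arrays entered the normalisation and the choice of 1 probe set per gene, and the Prominin-selected ones are compared at the end.

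Radial glia are the dividing progenitors of the embryonic cortex. Their cell bodies line the ventricle, they are tied together there by adherens junctions, and their long fibres reach the outer surface. They produce neurons directly or through basal progenitors, which carry the transcription factor Eomes and divide away from the ventricle. New neurons leave the cell cycle, migrate outward along the radial fibres and begin to build axons, dendrites and synapses. The GFAP promoter of humans is active in mouse radial glia well before astrocytes form, and GFP protein can persist for a time in the daughters of a cell that made it.

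All levels below are log2 values of the deposited intensity after 16 was added, normalised by quantiles. A difference is GFP-high minus GFP-low on that log2 scale, given ± its standard error (SE). Calls rest on limma's moderated test over 18193 genes, with a Benjamini-Hochberg adjusted p under 0.05 as the threshold. Genes that should be silent in cortex (olfactory and vomeronasal receptors and hair keratin-associated proteins, 109 genes) lay below a level of 5.63 in 95% of cases. That level is called background here, and no fold is given where the lower group was at or below it. Folds on this scale understate the change of dim genes.

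The 2 populations were clearly apart as whole profiles. Arrays of one population correlated with each other at 0.949 to 0.967 over all genes, and the best correlation of an array with the other population was 0.887 to 0.938. GFP-low replicate 3 lay toward the GFP-high cells: relative to the mean of its group it was 0.31 higher, as a median, over the genes called higher in GFP-high cells and its median deviation over those called lower was -0.19. The arrays GFP-high replicate 2 and GFP-low replicate 3 deviated from their group means in the same way (correlation across genes 0.26), and they had the lowest median intensities of the 6 arrays, 24.5 and 24.2. The fit without both is therefore also given where it, and no single array, ends the call of a gene described with its values, and where it moves the count of a list by 1.5 times or more. The 3′ to 5′ signal of Gapdh, a measure of RNA integrity, differed by -0.21 to -0.19 in GFP-high cells and by -0.25 to 0.18 in GFP-low cells (log2). The highest value belonged to GFP-low replicate 2.

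The labels were checked against marker genes. Prom1, which encodes Prominin and was not gated on here, had levels of 10.81, 10.8 and 10.74 in GFP-high cells, against 8.3, 8.75 and 8.84 in GFP-low cells. Gfap itself, whose human promoter drives the fluorescence, was near background: 5.2, 5.63 and 5.92 in GFP-high cells, against 4.31, 5.18 and 4.96 in GFP-low cells. Its difference of 0.77 ± 0.3 did not pass the threshold (limma adjusted p = 0.139), although the lowest GFP-high array lay just above the highest GFP-low array. Neuronal Tubb3 had levels of 10.77, 10.49 and 10.77 in GFP-high cells, against 12.75, 12.8 and 12.32 in GFP-low cells, which is well above background in both populations. Tubb3 was 3.86-fold lower in GFP-high cells. In such bulk samples fewer cells of a type and less RNA per cell cannot be told apart.

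Between GFP-high and GFP-low cells 2867 genes were called changed (15.8% of those tested), 1384 higher in GFP-high cells (7.61%) and 1483 lower (8.15%). Every list count below is to be read beside the shares of 7.61% higher and 8.15% lower. The median difference of all genes was -0.01. By levels alone, 6237 genes (34.3%) had groups that did not overlap. Without GFP-high replicate 1, the array with the other kit, 1842 genes were called, 863 higher (4.74%) and 979 lower (5.38%). Without GFP-high replicate 3 the number was 1896. The largest falls were larger than the largest rises: the 12 largest falls ran from -5.06 to -4.14 and the 12 largest rises from 3.02 to 3.39.

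Among the largest rises were enzymes, transcription factors and matrix proteins. Tk1, the thymidine kinase of the salvage pathway, had levels of 9.28, 8.82 and 9.26 in GFP-high cells, against 6.1, 4.23 and 6.86 in GFP-low cells. Uhrf1, which brings the maintenance DNA methyltransferase to replicated DNA, had 10.21, 9.93 and 10.16 in GFP-high cells, against 6.8, 6.28 and 7.75 in GFP-low cells. Gas1, a membrane co-receptor for Hedgehog ligands, had 12.02, 12.1 and 12.02 in GFP-high cells, against 8.33, 8.27 and 10.1 in GFP-low cells. In these 3 genes the GFP-high arrays lay close together and the GFP-low arrays were spread out, with GFP-low replicate 3 the highest of its group in each. Sox3, a SoxB1 transcription factor of neural progenitors, had 10.14, 10.07 and 10.1 in GFP-high cells, against 6.86, 6.28 and 7.74 in GFP-low cells. Sall1, a zinc-finger transcription factor, had 10.46, 10.1 and 10.13 in GFP-high cells, against 7.05, 6.14 and 8.19 in GFP-low cells. Zfp36l1, an RNA-binding protein that speeds the decay of messenger RNAs, had 10.51, 10.82 and 10.43 in GFP-high cells, against 7.16, 7.25 and 8.14 in GFP-low cells. The largest rises were taken only from called genes whose groups did not overlap. Mfap4, a microfibril-associated matrix protein, differed by 3.12 ± 0.55, and its adjusted p was 0.0734 with GFP-high replicate 2 and GFP-low replicate 3 both left out. With a pseudocount of 1 Tk1 missed the threshold (adjusted p = 0.0961).

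Of the 12 largest falls 5 had a mean at or below background in GFP-high cells. Sla, a Src-like adaptor protein, had levels of 4.55, 5.37 and 4.42 in GFP-high cells, against 9.97, 10.1 and 9.46 in GFP-low cells. Lrfn5, a synaptic adhesion molecule, had 5.66, 4.45 and 5.2 in GFP-high cells, against 9.76, 9.47 and 9.36 in GFP-low cells. Clstn2, a calsyntenin, had 5.56, 5.94 and 4.83 in GFP-high cells, against 9.67, 9.95 and 9.15 in GFP-low cells. The means of the GFP-high cells were at or below background in these 3 genes, so only the levels are given. Plk2, a polo-like kinase that acts at synapses in neurons, had 5.1, 6.36 and 6.23 in GFP-high cells, against 10.77, 10.75 and 10.03 in GFP-low cells. Ptpro, a receptor tyrosine phosphatase, had 6.29, 6.02 and 5.77 in GFP-high cells, against 10.45, 10.47 and 10.08 in GFP-low cells. Sh3gl2, which encodes the endocytic protein endophilin A1, had 6.51, 6.37 and 5.8 in GFP-high cells, against 10.31, 10.77 and 10.03 in GFP-low cells. These 3 were 24.6-fold, 19.8-fold and 17.7-fold lower in GFP-high cells. Plk2 was called from 1 of its 2 probe sets. Shtn1, or shootin 1, which links actin to adhesion in the growing axon, was 17.7-fold lower. Runx1t1, a transcriptional corepressor, differed by -4.36 ± 0.29 and was called from 5 of its 6 probe sets.

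**Figure D1:**
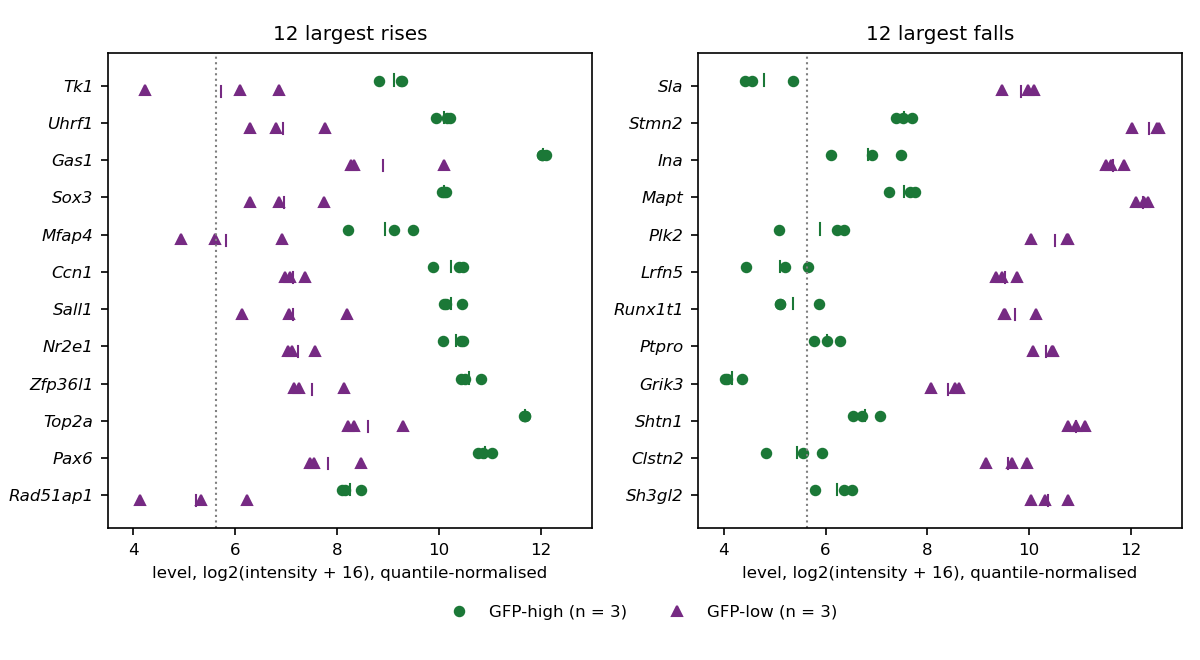
Levels, as log2(intensity + 16), of the 12 genes with the largest rises (left panel) and falls (right panel). Circles are the 3 GFP-high arrays, triangles the 3 GFP-low arrays, short vertical lines the group means, and the dotted line the background level of 5.63. GFP-low arrays scatter more than GFP-high arrays for most of the rises, and 5 of the falls have a GFP-high mean at or below background.

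Genes of mitosis and cytokinesis were higher in GFP-high cells without exception: 29 of 29 measured members were called higher, with a median difference of 2.60, against 7.61% of all genes called higher. The count stayed at 29 of 29 when any single array was left out. Top2a, the topoisomerase that untangles sister chromosomes, had levels of 11.66, 11.68 and 11.69 in GFP-high cells, against 8.32, 8.22 and 9.3 in GFP-low cells. Cdk1, the kinase that starts mitosis, had 10.98, 10.77 and 11.05 in GFP-high cells, against 7.85, 7.75 and 8.42 in GFP-low cells. Bub1, a kinase of the spindle checkpoint, had 9.36, 9.84 and 9.45 in GFP-high cells, against 5.95, 6.62 and 7.37 in GFP-low cells. Of its 2 probe sets 1 was called. Cenpf, a kinetochore protein, had 9.7, 9.66 and 9.6 in GFP-high cells, against 6.63, 6.16 and 7.48 in GFP-low cells. The lowest GFP-high array lay above the highest GFP-low array in all 29 members, against 17.1% of all genes. The smallest difference of the list was 1.43, and the levels in GFP-low cells were above background for all 4 genes named here.

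Genes of replication origins and forks followed, with 25 of 28 measured members higher, none lower and a median difference of 1.71. The count was 22 to 24 when single arrays were left out. Mcm3 and Mcm6, subunits of the replicative helicase, differed by 2.95 ± 0.23 and 2.94 ± 0.22. Mcm3 had levels of 10.4, 9.92 and 10.16 in GFP-high cells, against 7.25, 6.88 and 7.51 in GFP-low cells. Cdt1 and Cdc6 load that helicase onto origins: Cdt1 was 7.05-fold higher in GFP-high cells, and Cdc6 had levels of 8.31, 8.69 and 8.13 in GFP-high cells, against 5.56, 5.63 and 6.24 in GFP-low cells. Pole, the catalytic subunit of the leading-strand polymerase, was 6.27-fold higher in GFP-high cells with levels of 8.96, 8.87 and 9.0 in GFP-high cells, against 6.44, 5.48 and 6.98 in GFP-low cells. Orc1, Orc6 and Rfc3 did not pass the threshold.

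Promoters of the mitosis and replication lists, whatever the call of a gene, were read for short motifs. They were RefSeq promoters (GRCm38.p6), from 250 bases before to 50 after the start site. The cell cycle homology element (CHR, searched as TTTGAA) is a known element of mitotic promoters, often beside CCAAT boxes, and E2F sites (searched as TTTCCCGC or TTTGGCGC) are known from replication genes. Both strands were searched, and the 2 mitotic motifs do not overlap each other by letters. Promoters were found for 25 mitosis genes, and 20 of them held TTTGAA (80.0%), against 13.3% of the 14452 promoters of genes tested. Together with CCAAT it was in 17 of 25 (68.0%), against 5.37% of all. The E2F letters were in 0 of those 25 promoters and in 11 of 24 promoters of the replication list (45.8%), against 2.52% of all. Over whole directions, TTTGAA with CCAAT stood in 10.1% of promoters of genes called higher and in 3.61% of those called lower, and the E2F letters in 6.3% and 0.967%. The letters CAGATG, an E-box form bound by proneural factors, stood in 11% of promoters of genes called higher, 11.5% of those called lower and 13.5% of all. A match is only a match of letters. Because these elements are known from such genes, the shares of the 2 lists describe the choice of members and not the GFP contrast.

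The 250 bases before the start site are shown for the 2 mitosis genes with the largest differences among those holding both motifs there, and for the replication gene with the largest difference holding the E2F letters there. Capitals mark, on either strand, the TTTGAA and CCAAT letters in Top2a and Cdk1 and the E2F letters alone in Mcm6, and each sequence is written 5′ to 3′ along its gene. Top2a lies at chr11:99024190-99024439 (minus strand), Cdk1 at chr10:69352913-69353162 (minus strand) and Mcm6 at chr1:128359706-128359955 (minus strand).
Top2a: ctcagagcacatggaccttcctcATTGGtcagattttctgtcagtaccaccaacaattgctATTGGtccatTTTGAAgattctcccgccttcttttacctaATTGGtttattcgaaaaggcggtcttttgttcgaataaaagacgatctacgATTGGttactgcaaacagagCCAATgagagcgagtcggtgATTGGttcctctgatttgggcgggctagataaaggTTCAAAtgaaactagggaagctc
Cdk1: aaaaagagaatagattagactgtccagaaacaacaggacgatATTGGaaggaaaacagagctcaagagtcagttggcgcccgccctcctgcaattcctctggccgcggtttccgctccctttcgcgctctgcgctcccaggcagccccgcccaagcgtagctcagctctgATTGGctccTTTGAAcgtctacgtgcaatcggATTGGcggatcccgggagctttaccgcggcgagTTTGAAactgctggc
Mcm6: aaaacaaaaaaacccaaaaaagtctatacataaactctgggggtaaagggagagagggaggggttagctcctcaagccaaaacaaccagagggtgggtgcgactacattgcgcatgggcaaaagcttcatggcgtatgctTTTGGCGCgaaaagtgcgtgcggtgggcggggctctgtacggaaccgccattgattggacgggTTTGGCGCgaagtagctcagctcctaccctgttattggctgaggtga
In Top2a the TTTGAA letters begin at bases -179 and -23 from the start site, the copy at -23 on the other strand, with 6 CCAAT boxes around them. In Cdk1 they begin at -71 and -15 with 3 CCAAT boxes, and in Mcm6 the E2F letters begin at -110 and -47.

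Other genes that dividing cells need were higher less uniformly. Of 15 measured genes of homologous recombination and mismatch repair 13 were higher and none lower (median 1.64). Exo1, an exonuclease of both repair routes, had levels of 7.88, 7.78 and 7.75 in GFP-high cells, against 5.5, 5.62 and 5.99 in GFP-low cells. Chek1, the checkpoint kinase of stalled forks, differed by 2.34 ± 0.33 and Brca1 by 2.0 ± 0.28. Nucleotide synthesis had 9 of 18 members higher and none lower (median 0.89). Rrm1 and Rrm2, the subunits of ribonucleotide reductase, were 4.42-fold and 5.14-fold higher in GFP-high cells, and both groups lay far above background in each. Of the 17 measured chromatin genes of dividing cells 10 were higher and none lower (median 1.08). Hells, a remodeller needed for DNA methylation, had levels of 9.9, 9.91 and 9.6 in GFP-high cells, against 7.16, 6.49 and 7.66 in GFP-low cells. Hmgb2, a chromatin protein abundant in proliferating cells, was 5.67-fold higher in GFP-high cells.

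Among G1 cyclins, Cdk inhibitors and pocket proteins 13 of 20 were higher and none lower (median 1.36). Cdk6, the kinase partner of D cyclins, had levels of 10.1, 10.01 and 10.07 in GFP-high cells, against 7.11, 7.14 and 7.6 in GFP-low cells. Cdkn2c, an inhibitor of Cdk4 and Cdk6, was also higher, with 9.18, 8.73 and 9.06 in GFP-high cells, against 6.47, 6.66 and 6.85 in GFP-low cells. Of the retinoblastoma family Rbl1 was 5.3-fold higher in GFP-high cells, whereas the differences of Rb1 and Rbl2, members read after their values were seen, were -0.16 and 0.2 and did not pass the threshold. E2f8, a repressor of the E2F family, had levels of 8.2, 8.09 and 8.1 in GFP-high cells, against 5.35, 4.77 and 6.0 in GFP-low cells. Of its 2 probe sets 1 was called. Cdkn1c, an inhibitor linked to cell cycle exit, differed by -0.62 and was not called (adjusted p = 0.105).

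Of 20 measured genes of microcephaly and centrosome duplication 7 were higher and none lower (median 0.76). Aspm, a spindle pole protein, had levels of 9.52, 9.62 and 9.5 in GFP-high cells, against 7.04, 7.0 and 7.38 in GFP-low cells. Nde1, which acts with dynein at the centrosome, had 9.6, 9.29 and 9.53 in GFP-high cells, against 7.19, 6.99 and 7.28 in GFP-low cells. Plk4, the kinase that starts centriole duplication, had 9.9, 10.0 and 9.65 in GFP-high cells, against 7.19, 6.91 and 7.71 in GFP-low cells. Over the list GFP-high lay above GFP-low without overlap in 12 of the 20, against 17.1% of all genes. It lay below in 1, against 17.2%. The other called members were Stil, Cep63, Cenpe and Kif11, and 13 members did not pass the threshold.

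**Figure D2:**
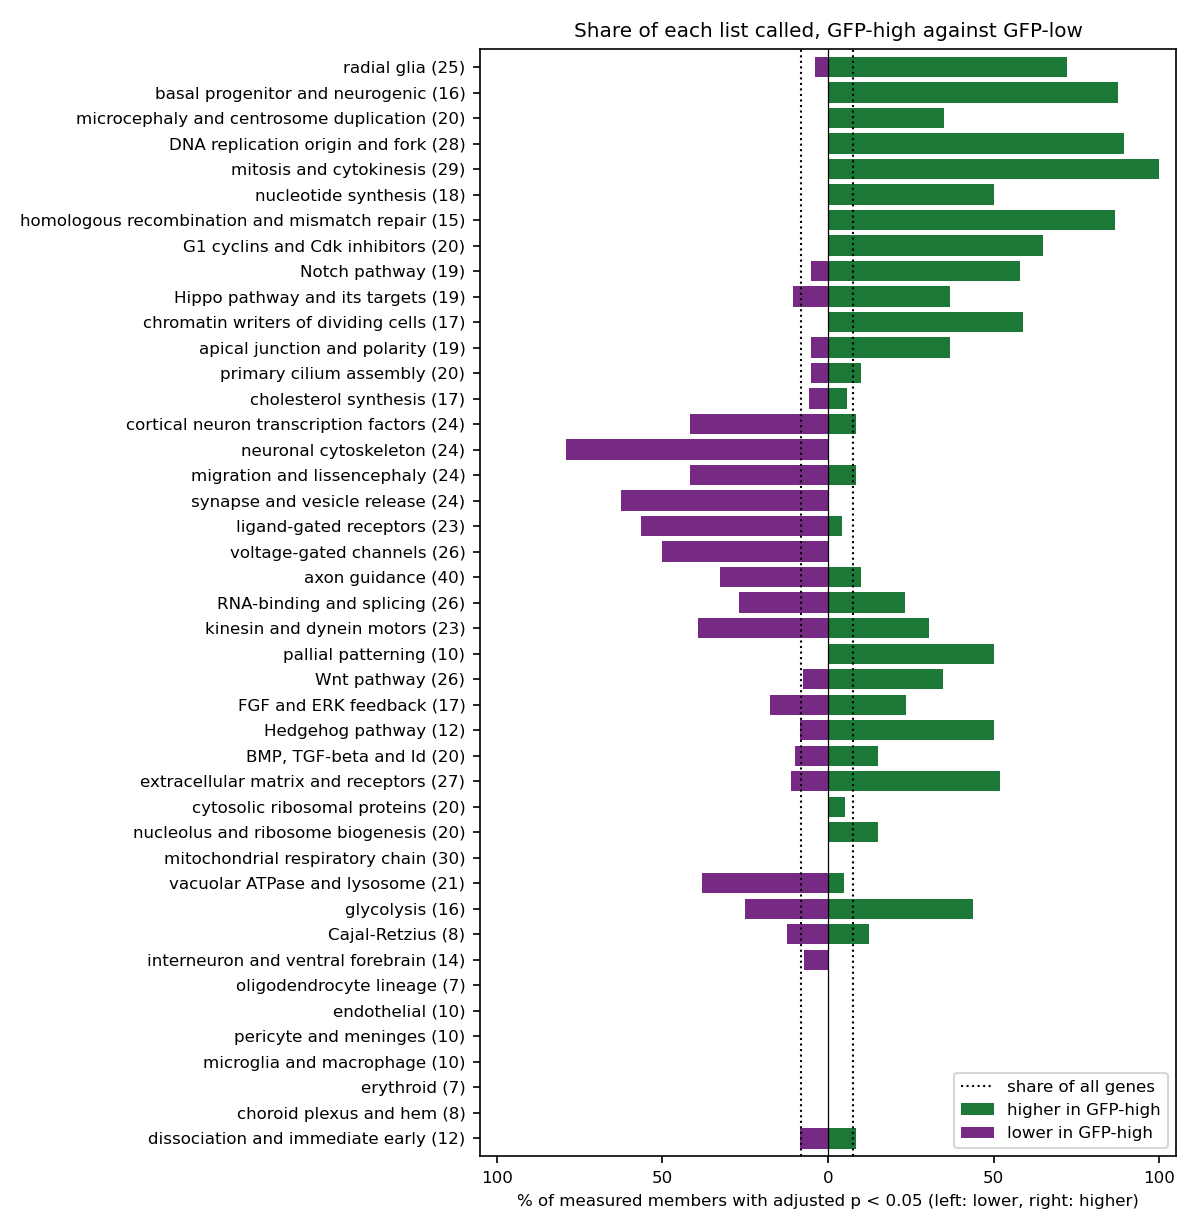
Share of the measured members of each list (their number in parentheses) that were called higher (right, green) or lower (left, purple) in GFP-high cells. Dotted lines give the same shares over all genes tested, 7.61% higher and 8.15% lower. Lists of division stand far to the right, lists of neuronal function far to the left, and respiratory chain genes and the markers of 6 other cell types have no called member.

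Genes of radial glia were the next large group. Of 25 measured members 18 were called higher and 1 lower (median 2.27). Pax6, the transcription factor of pallial progenitors, had levels of 10.77, 10.86 and 11.05 in GFP-high cells, against 7.54, 7.47 and 8.47 in GFP-low cells, and Sox2, which maintains neural stem cells, had 11.87, 11.6 and 11.78 in GFP-high cells, against 8.5, 8.87 and 9.64 in GFP-low cells. Nr2e1, a nuclear receptor of neural stem cells, had 10.44, 10.07 and 10.47 in GFP-high cells, against 7.03, 7.11 and 7.57 in GFP-low cells. Each had its highest GFP-low value in replicate 3. The one member that fell was Slc1a2, a glutamate transporter known from mature astrocytes: its levels were 5.11, 4.35 and 4.63 in GFP-high cells, against 6.01, 7.0 and 6.22 in GFP-low cells, so it was at background in GFP-high cells. It was called from 1 of its 5 probe sets, and with the mean of them its adjusted p was 0.169. It also missed the threshold with GFP-high replicate 2 and GFP-low replicate 3 both left out.

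In the Notch pathway, through which neighbouring cells hold each other in the progenitor state, 11 of 19 members were higher and 1 lower (median 1.2). The receptor Notch2 had levels of 9.79, 10.08 and 9.86 in GFP-high cells, against 6.72, 6.76 and 7.81 in GFP-low cells. Of its 2 probe sets 1 was called. The target genes Hes1 and Hes5, repressors of neurogenesis, differed by 2.3 ± 0.18 and 2.27 ± 0.36. Hes5 was the more variable of them in GFP-high cells, with levels of 8.32, 9.3 and 7.89 in GFP-high cells, against 6.03, 6.28 and 6.4 in GFP-low cells. Numb, an inhibitor of Notch signalling, was also higher (1.11 ± 0.2), with an adjusted p of 0.0651 in limma with GFP-high replicate 2 and GFP-low replicate 3 both left out. Numbl, its relative, differed by -0.08 ± 0.32.

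The Hippo pathway controls growth through the coactivators Yap1 and Wwtr1 and the Tead factors. Of 19 members 7 were higher and 2 lower, with a median of 0.32. Yap1 had levels of 9.62, 9.88 and 9.7 in GFP-high cells, against 6.41, 6.89 and 7.29 in GFP-low cells. Wwtr1, which encodes Taz, had 9.26, 9.2 and 9.35 in GFP-high cells, against 6.7, 6.36 and 6.87 in GFP-low cells. Tead2, their DNA-binding partner, had 10.1, 9.8 and 10.26 in GFP-high cells, against 7.6, 7.63 and 7.84 in GFP-low cells. Over the list GFP-high lay above GFP-low without overlap in 8 of the 19, against 17.1% of all genes. It lay below in 2, against 17.2%. The target Ccn1, a secreted matricellular protein, had levels of 10.46, 9.88 and 10.39 in GFP-high cells, against 6.98, 7.36 and 7.07 in GFP-low cells, and Ajuba, a LIM protein that restrains the Lats kinases, had 9.42, 9.56 and 9.12 in GFP-high cells, against 6.29, 6.28 and 6.72 in GFP-low cells. In the opposite direction Fat4, a giant cadherin upstream of the pathway, had 8.19, 8.19 and 8.37 in GFP-high cells, against 10.16, 10.15 and 9.95 in GFP-low cells. The kinase-side members Lats1, Lats2, Stk4 and Sav1, named after their values were seen, were not called and differed by -0.01, 0.24, -0.05 and 0.13. Nf2 differed by -0.7 ± 0.17 and missed the threshold when any single array other than GFP-low replicate 3 was left out (adjusted p up to 0.116).

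Of 12 measured members of the Hedgehog pathway 6 were higher and 1 lower (median 0.68). Smo, the membrane activator, had levels of 9.62, 9.6 and 9.62 in GFP-high cells, against 7.45, 7.36 and 7.6 in GFP-low cells. Gli3, mostly a repressor in the cortex, had 10.02, 10.64 and 10.23 in GFP-high cells, against 7.13, 7.41 and 8.01 in GFP-low cells and Gli2 had 9.62, 9.81 and 9.47 in GFP-high cells, against 6.86, 7.52 and 8.25 in GFP-low cells. Cdon, a co-receptor like Gas1, was 5.83-fold higher in GFP-high cells. The usual readouts of active signalling, Gli1 and Ptch1, were chosen after their values were seen and were not called: Gli1 differed by 0.5 with means at or below background, and Ptch1 by -0.13 ± 0.23. The 1 member called lower was Hhip, which binds and sequesters Hedgehog ligands. Both group means of Hhip were at or below background, as for Gli1. It differed by -1.04 ± 0.2, with an adjusted p of 0.0576 without GFP-high replicate 1 and of 0.559 as the mean of its probe sets.

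In the Wnt pathway 9 of 26 members were higher and 2 lower (median 0.39). The shares over all genes were 7.61% higher and 8.15% lower, so the number lower was near its share. Fzd8, a receptor, had levels of 9.82, 10.31 and 9.97 in GFP-high cells, against 7.84, 7.01 and 7.76 in GFP-low cells, and the cell cycle target Ccnd1 had 9.1, 9.32 and 9.31 in GFP-high cells, against 7.5, 6.62 and 7.78 in GFP-low cells. The 2 members that fell were secreted proteins. Rspo3, an R-spondin that strengthens Wnt signals, was below background in GFP-high cells, with levels of 5.01, 5.5 and 4.59 in GFP-high cells, against 8.98, 9.18 and 8.97 in GFP-low cells. The ligand Wnt7b had 8.45, 8.53 and 8.62 in GFP-high cells, against 10.88, 11.07 and 10.47 in GFP-low cells. They were the 2 members of the list with every GFP-low array above every GFP-high array, against 17.2% of all genes. Axin2, a feedback target named after its values were seen, differed by 0.41 and was not called (adjusted p = 0.209).

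In the FGF list 2 receptors rose and 2 ERK phosphatases fell, with 4 of 17 members higher, 3 lower and a median of -0.19. The shares over all genes were 7.61% higher and 8.15% lower. The receptor Fgfr2 differed by 1.67 ± 0.25, with an adjusted p of 0.0639 in limma with GFP-high replicate 2 and GFP-low replicate 3 both left out. Fgfr3 had levels of 10.28, 10.51 and 10.16 in GFP-high cells, against 7.4, 7.26 and 8.55 in GFP-low cells and Etv5, a transcription factor induced by FGF, had 8.98, 8.09 and 8.95 in GFP-high cells, against 6.55, 6.45 and 6.29 in GFP-low cells. Fgfbp3, a secreted protein that binds FGFs, was 4.28-fold higher in GFP-high cells. Dusp6, the phosphatase that switches off ERK, went the other way, with 5.59, 5.55 and 5.39 in GFP-high cells, against 9.36, 9.16 and 8.44 in GFP-low cells. The GFP-high arrays were all below background for Dusp6. Dusp4, a nuclear phosphatase of the same family, differed by -1.07 ± 0.16, and the ligand Fgf18 by -1.49 ± 0.21. Fgfr1, with a difference of -0.19 ± 0.17, was not called.

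The BMP and Id list had 3 of 20 members higher and 2 lower (median 0.16), beside 7.61% higher and 8.15% lower over all genes. Its Id genes, inhibitors of basic helix-loop-helix factors, moved in both directions. Id4 had levels of 12.35, 12.37 and 12.24 in GFP-high cells, against 9.71, 9.63 and 10.56 in GFP-low cells. Id2 had 10.48, 10.4 and 10.13 in GFP-high cells, against 11.92, 12.24 and 11.91 in GFP-low cells. Id1 and Id3, named after their values were seen, differed by 1.44 and 0.54 and were not called. Both group means were at or below background in 7 of the 20 members, Id3 among them.

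**Figure D3:**
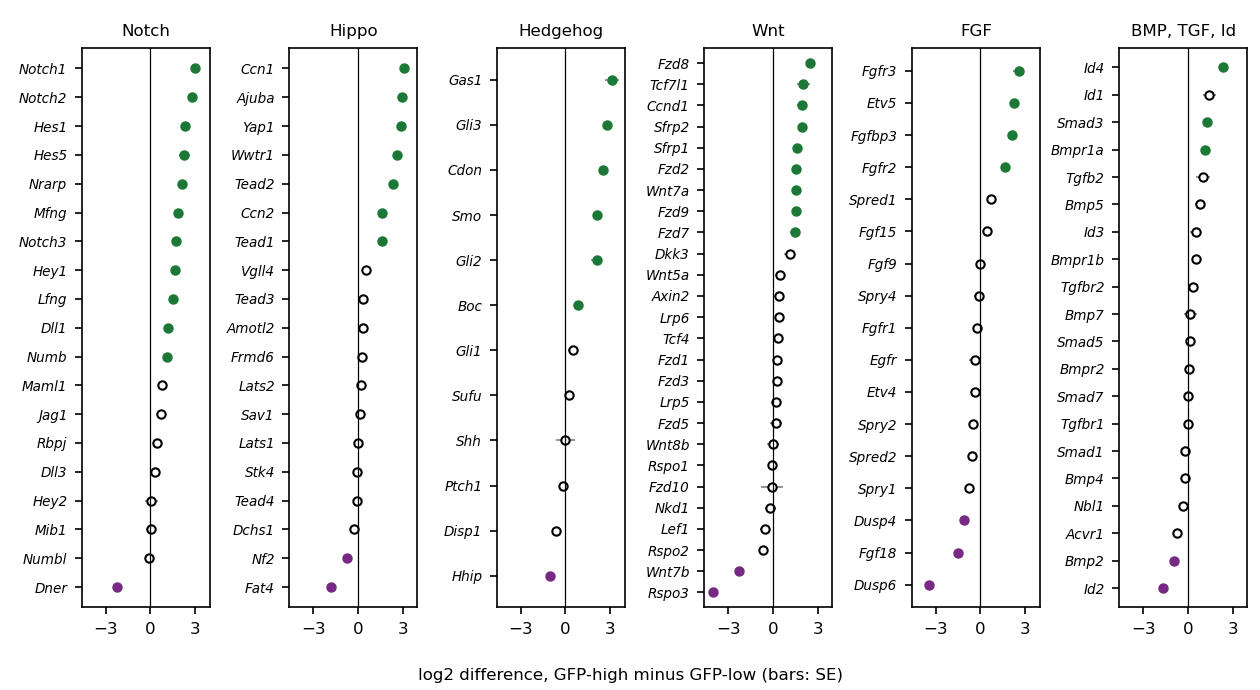
Difference (GFP-high minus GFP-low, log2) of every measured member of 6 signalling lists, with bars for the standard error. Green points were called higher, purple points lower and open points not called. Gas1, Ccn1 and Notch1 lie at the upper end, and Dner, Fat4, Wnt7b, Rspo3, Dusp6 and Id2 lie at the lower end.

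Transcription factors that pattern the pallium were higher in part: 5 of 10 were called higher and none lower (median 1.36). Emx2 had levels of 9.62, 8.84 and 9.24 in GFP-high cells, against 6.44, 6.32 and 6.93 in GFP-low cells and Lhx2 had 11.88, 11.53 and 11.85 in GFP-high cells, against 10.07, 9.94 and 10.33 in GFP-low cells. Dmrta2 had 10.3, 11.35 and 10.6 in GFP-high cells, against 7.78, 7.22 and 9.25 in GFP-low cells, with GFP-low replicate 3 above the other GFP-low arrays. The count fell to 2 without GFP-high replicate 2 and to 3 when GFP-high replicate 1, GFP-high replicate 3 or GFP-low replicate 1 was left out. Dmrta2 itself missed the threshold without GFP-high replicate 2 or GFP-low replicate 1 (adjusted p up to 0.063).

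Markers of basal progenitors and the onset of neurogenesis were higher in GFP-high cells as well, in 14 of 16 members, with none lower and a median of 1.74. Neurog1, a proneural transcription factor, had levels of 9.16, 9.77 and 8.7 in GFP-high cells, against 6.1, 6.16 and 7.01 in GFP-low cells, and Neurog2, its relative, had 12.37, 12.3 and 12.5 in GFP-high cells, against 9.78, 9.84 and 10.72 in GFP-low cells. Tfap2c, a transcription factor of basal progenitors, had 10.14, 9.75 and 9.95 in GFP-high cells, against 7.29, 7.16 and 7.91 in GFP-low cells. Chd7, a chromatin remodeller, had 7.71, 8.55 and 8.3 in GFP-high cells, against 5.63, 5.68 and 6.69 in GFP-low cells. Eomes differed by 2.32 ± 0.24. On every GFP-low array Eomes and Neurog2 were also far above background, at 9.53 or more. The list reached 12 or 13 members higher when single arrays were left out.

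Of 27 genes of extracellular matrix and its receptors 14 were higher and 3 lower (median 0.93), and 9 were higher with GFP-high replicate 2 and GFP-low replicate 3 both left out. Itgb8, an integrin subunit, had levels of 8.95, 9.09 and 8.38 in GFP-high cells, against 6.15, 6.1 and 6.58 in GFP-low cells. Col2a1, a fibrillar collagen, had 8.65, 8.41 and 9.32 in GFP-high cells, against 6.29, 6.22 and 6.44 in GFP-low cells, and Gpc6, a glypican, had 7.96, 8.23 and 7.95 in GFP-high cells, against 5.76, 5.52 and 6.33 in GFP-low cells. Over the list GFP-high lay above GFP-low without overlap in 18 of the 27, against 17.1% of all genes. It lay below in 4, against 17.2%. Chondroitin sulphate proteoglycans moved in both directions: Bcan had 9.24, 8.19 and 8.7 in GFP-high cells, against 5.79, 6.96 and 6.2 in GFP-low cells, while Vcan had 7.77, 8.07 and 7.48 in GFP-high cells, against 9.89, 9.9 and 9.9 in GFP-low cells. Vcan was called from 1 of 8 probe sets, and with their mean its adjusted p was 0.0877. Bcan had an adjusted p of 0.0561 with GFP-high replicate 2 and GFP-low replicate 3 both left out.

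Apical junction and polarity genes were higher in 7 of 19 members and lower in 1 (median 0.42). Ctnna1, or alpha-catenin, had levels of 11.47, 11.46 and 11.49 in GFP-high cells, against 9.24, 9.16 and 9.78 in GFP-low cells. Mpp5, or Pals1, which assembles the apical Crumbs complex, had 8.6, 8.43 and 8.41 in GFP-high cells, against 6.88, 6.29 and 6.59 in GFP-low cells, and Fat1, a giant cadherin, had 10.17, 10.47 and 10.27 in GFP-high cells, against 7.1, 7.57 and 8.11 in GFP-low cells. The cadherin of the junction itself, Cdh2, and its partner Ctnnb1 were named after their values were seen and were not called, with differences of -0.14 and 0.41. Primary cilium genes had 2 of 20 members higher and 1 lower, near the shares over all genes (7.61% and 8.15%): Ift74 and Ift80, subunits of the transport complex of cilia, differed by 1.3 ± 0.16 and 1.19 ± 0.16. The lower one, the ciliary kinesin Kif3a, differed by -0.94 ± 0.18 and missed the threshold without GFP-high replicate 1, GFP-high replicate 2 or GFP-low replicate 1 (adjusted p up to 0.0615). Cholesterol synthesis, which growing membranes need, had 1 of 17 members higher and 1 lower, also near the shares over all genes. The higher one was Idi1, an isomerase of that pathway (1.23 ± 0.2). The lower one, Ebp, differed by -0.74 ± 0.19 and missed the threshold without any single array (adjusted p up to 0.121).

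Genes of neurons made up the other side of the comparison. Of 24 measured cytoskeletal genes of neurons 19 were lower in GFP-high cells and none higher, with a median difference of -1.78, against 8.15% of all genes called lower. The number was 15 to 18 when single arrays were left out. Stmn2, which destabilises microtubules in growth cones, had levels of 7.39, 7.7 and 7.53 in GFP-high cells, against 12.52, 12.54 and 12.02 in GFP-low cells. Ina, the intermediate filament alpha-internexin, had 6.11, 7.47 and 6.92 in GFP-high cells, against 11.5, 11.6 and 11.85 in GFP-low cells, and Nefm, the medium neurofilament, had 5.6, 6.22 and 6.25 in GFP-high cells, against 8.98, 8.97 and 8.63 in GFP-low cells. Stmn3, a relative of Stmn2, had 9.44, 9.82 and 9.59 in GFP-high cells, against 12.44, 12.53 and 12.63 in GFP-low cells. Every GFP-high array lay below every GFP-low array in 22 of the 24 members, against 17.2% of all genes. Dcx, a microtubule-binding protein of migrating neurons, was even across the arrays of each group, with 10.78, 10.65 and 10.91 in GFP-high cells, against 12.33, 12.35 and 12.36 in GFP-low cells.

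Transcription factors of cortical neurons were lower in 10 of 24 members and higher in 2 (median -0.87). Mef2c, a factor of maturing neurons, had levels of 5.49, 6.24 and 6.07 in GFP-high cells, against 9.36, 9.24 and 9.36 in GFP-low cells. Myt1l, a neuronal zinc-finger factor, had 7.81, 8.16 and 7.81 in GFP-high cells, against 10.53, 10.44 and 10.51 in GFP-low cells. Sox5 and Bcl11b, which specify deep-layer projection neurons, had 8.87, 8.71 and 8.59 in GFP-high cells, against 11.46, 11.17 and 11.28 in GFP-low cells for Sox5, and 9.67, 9.76 and 9.15 in GFP-high cells, against 12.05, 12.28 and 11.99 in GFP-low cells for Bcl11b. Zfpm2, a partner of GATA factors, and Tbr1, a factor of early-born neurons, were 5.59-fold and 5.11-fold lower in GFP-high cells. The 2 that were higher were Bhlhe40, a repressor, with a difference of 1.95 ± 0.34, and Cux1, whose difference of 0.8 ± 0.2 missed the threshold without any single array (adjusted p up to 0.119). Without 5 of the 6 arrays in turn the number higher was 1.

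Genes of migration and of lissencephaly, in which neurons fail to reach their place, were lower in 10 of 24 members and higher in 2 (median -0.77). Dab1 and Vldlr carry the Reelin signal inside and at the surface of neurons. Dab1 had levels of 8.38, 8.29 and 7.87 in GFP-high cells, against 10.92, 11.01 and 10.48 in GFP-low cells, and Vldlr had 7.17, 7.43 and 6.77 in GFP-high cells, against 8.97, 9.01 and 9.18 in GFP-low cells. Cdk5r1, the activator of Cdk5, had 8.79, 9.12 and 8.89 in GFP-high cells, against 11.47, 11.32 and 11.08 in GFP-low cells, while Cdk5 differed by -0.8 ± 0.26 and was not called. Flrt2, a guidance and adhesion protein, was 5.41-fold lower in GFP-high cells. Plxnd1, a semaphorin receptor, was at or below background in GFP-high cells on average, with 4.32, 5.35 and 5.73 in GFP-high cells, against 8.23, 8.32 and 8.5 in GFP-low cells. The 2 members that were higher were Flna and Cxcr4. Filamin A, Flna, an actin crosslinker whose loss leaves neurons at the ventricle in humans, differed by 1.01 ± 0.2, and Cxcr4, a chemokine receptor, by 1.54 ± 0.37. Both lost their call without GFP-high replicate 2, GFP-high replicate 3 or GFP-low replicate 1, and Cxcr4 also without GFP-high replicate 1 or GFP-low replicate 2 (adjusted p up to 0.0632 and 0.103).

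In axon guidance 13 of 40 members were lower and 4 higher (median -0.49). Robo1, the Slit receptor, had levels of 6.0, 6.01 and 5.85 in GFP-high cells, against 10.03, 9.91 and 9.82 in GFP-low cells. The axonal adhesion proteins Cntn2 and L1cam had 8.44, 7.95 and 8.47 in GFP-high cells, against 11.82, 11.88 and 11.27 in GFP-low cells for Cntn2, and 9.58, 9.97 and 9.76 in GFP-high cells, against 11.83, 11.9 and 12.02 in GFP-low cells for L1cam. Opposite in direction was Epha4, an ephrin receptor, with 10.39, 10.23 and 10.12 in GFP-high cells, against 8.93, 9.03 and 9.41 in GFP-low cells. Sema5a, a semaphorin, differed by 2.19 ± 0.41, with an adjusted p of 0.0504 without GFP-low replicate 1. The number lower was 8 without GFP-high replicate 2, and the number higher was 2 with that array and GFP-low replicate 3 both left out.

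Genes of synapses and vesicle release were lower in 15 of 24 members and higher in none (median -1.40), and lower in 10 with GFP-high replicate 2 and GFP-low replicate 3 both left out. Syt1, the calcium sensor of vesicle release, had levels of 5.38, 5.92 and 5.99 in GFP-high cells, against 9.83, 9.74 and 9.51 in GFP-low cells. Snap25, a SNARE of the presynaptic membrane, had 7.03, 7.86 and 7.18 in GFP-high cells, against 10.73, 10.48 and 10.51 in GFP-low cells. Cplx1, or complexin 1, had 7.15, 6.31 and 6.5 in GFP-high cells, against 10.05, 10.16 and 9.67 in GFP-low cells, and Rab3c, a small GTPase of vesicles, had 7.14, 6.88 and 6.76 in GFP-high cells, against 10.19, 9.97 and 9.71 in GFP-low cells. Over the list GFP-high lay below GFP-low without overlap in 16 of the 24, against 17.2% of all genes. It lay above in 1, against 17.1%. Syt1 was called from 1 of its 4 probe sets and Snap25, Cplx1 and Rab3c from at least 2.

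Ligand-gated receptors, through which neurons sense glutamate, GABA and glycine, were lower in 13 of 23 members and higher in 1 (median -1.21), and most were dim. Grik3, a kainate receptor subunit, had levels of 4.07, 4.03 and 4.36 in GFP-high cells, against 8.06, 8.61 and 8.54 in GFP-low cells. Of its 2 probe sets 1 was called. Gria3, an AMPA receptor subunit, had 4.75, 5.68 and 4.61 in GFP-high cells, against 8.53, 8.35 and 8.02 in GFP-low cells. Glra2, the glycine receptor subunit of embryonic neurons, had 5.57, 4.9 and 5.06 in GFP-high cells, against 8.44, 8.42 and 8.69 in GFP-low cells. GFP-high means were at or below background in these 3. Gria1 behaved likewise, with a difference of -2.73 ± 0.23. Grik2, the only member higher, differed by 0.77 ± 0.21 and missed the threshold without any single array (adjusted p up to 0.133).

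Voltage-gated channels were lower in 13 of 26 members and higher in none (median -1.27), and lower in 8 with GFP-high replicate 2 and GFP-low replicate 3 both left out. Kcnq3, a potassium channel subunit of the M current, had levels of 5.21, 6.57 and 6.23 in GFP-high cells, against 10.15, 9.9 and 10.37 in GFP-low cells. Scn3b, a sodium channel beta subunit, had 6.64, 6.31 and 6.19 in GFP-high cells, against 9.45, 9.45 and 9.4 in GFP-low cells. Scn2a, a main sodium channel of immature axons, had 4.21, 5.18 and 4.14 in GFP-high cells, against 8.02, 7.83 and 7.5 in GFP-low cells, and Kcna1, a Shaker-type potassium channel, had 4.89, 5.23 and 6.3 in GFP-high cells, against 9.26, 9.2 and 8.62 in GFP-low cells. GFP-high means were at or below background for Scn2a and Kcna1 and above it for Kcnq3 and Scn3b.

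**Figure D4:**
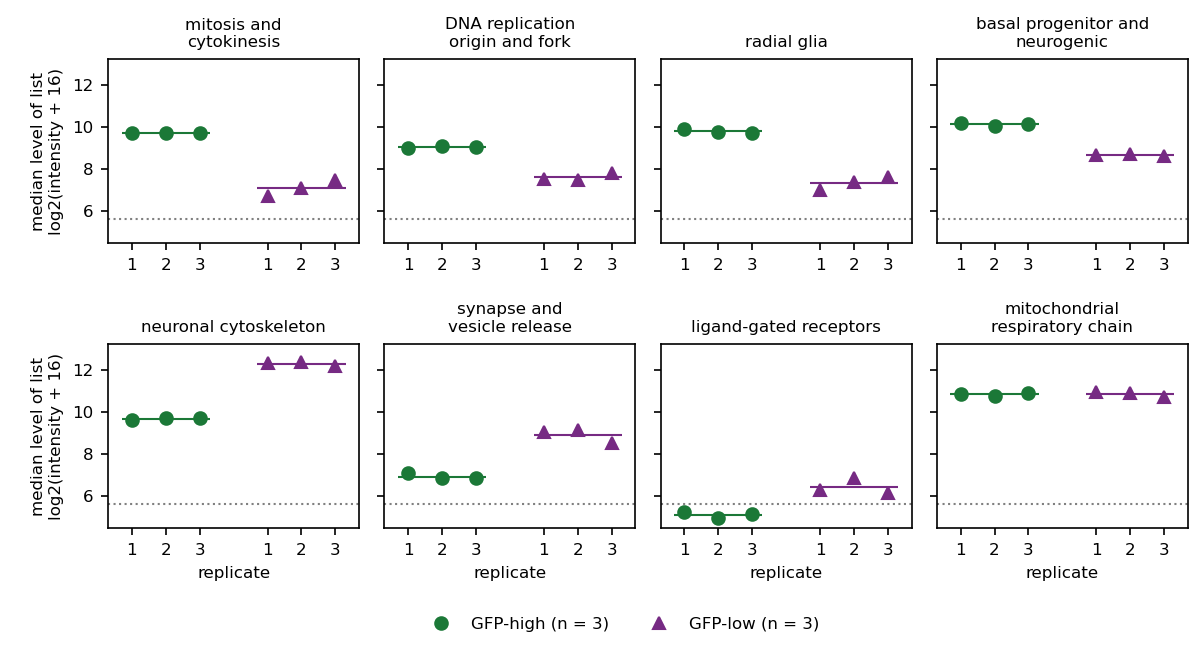
Median level of 8 lists on each array, as log2(intensity + 16). Circles are GFP-high replicates, triangles GFP-low replicates, horizontal lines group means and dotted lines the background level of 5.63. GFP-high arrays agree closely. Among GFP-low arrays replicate 3 is highest for mitosis (7.48), replication and radial glia and lowest for the synapse list (8.51), and the respiratory chain shows no separation.

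Host transcripts of neural microRNAs ran in 2 directions. The array holds 14 genes named as microRNAs or their hosts, and 4 of them were called, against 15.8% of all genes. Most of those not called had both group means at or below background. Mir124-2hg and Mir124a-1hg, hosts of miR-124, the most abundant microRNA of neurons, had levels of 8.22, 8.21 and 8.34 in GFP-high cells, against 9.76, 9.37 and 9.74 in GFP-low cells for Mir124-2hg, and 6.46, 6.76 and 6.88 in GFP-high cells, against 8.17, 8.44 and 8.37 in GFP-low cells for Mir124a-1hg. Both were lower in GFP-high cells, by -1.37 and -1.63. Mir9-3hg, a host of miR-9, which acts on both progenitors and neurons, went the other way, with 9.07, 8.76 and 9.45 in GFP-high cells, against 7.98, 7.42 and 7.59 in GFP-low cells (difference 1.43). Mir670hg, also higher, differed by 1.5. The arrays measured the host transcripts and not the mature microRNAs. The 2 mature products of the Mir9-3 hairpin are shown. The mature sequence of miR-124 was not found in the reference used, so none is shown for its hosts. Capitals mark the seed, bases 2 to 8, and the sequences are from RefSeq (GRCm38.p6), at chr7:79505279-79505301 and chr7:79505318-79505339 on the plus strand.
mmu-miR-9-5p: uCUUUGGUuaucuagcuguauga
mmu-miR-9-3p: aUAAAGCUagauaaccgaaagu
The 2 seeds, CUUUGGU and UAAAGCU, differ, and the hairpins Mir9-1 and Mir9-2 carry the same 2 mature sequences.

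RNA-binding and splicing proteins changed in both directions, with 6 of 26 members higher, 7 lower and a median of -0.14. The shares over all genes were 7.61% higher and 8.15% lower. Ptbp1, which represses neuronal exons in progenitors, had levels of 11.21, 11.27 and 11.41 in GFP-high cells, against 9.34, 9.04 and 9.58 in GFP-low cells. Its neuronal relative Ptbp2 was almost level, with 11.9, 11.9 and 11.89 in GFP-high cells, against 11.64, 11.45 and 11.61 in GFP-low cells, and was not called. Qk, or quaking, was 2.87-fold higher in GFP-high cells from 6 of 7 probe sets. Rbfox1 and Celf5, splicing factors of neurons, had 6.98, 7.6 and 6.45 in GFP-high cells, against 10.34, 10.3 and 10.82 in GFP-low cells for Rbfox1, and 8.01, 8.1 and 8.12 in GFP-high cells, against 11.05, 10.95 and 10.85 in GFP-low cells for Celf5. Rbfox2 also fell (-1.31 ± 0.22), while Rbfox3, widely used as a neuronal marker under the name NeuN, differed by -0.77 ± 0.33. With the mean of its 3 probe sets Ptbp1 missed the threshold (adjusted p = 0.0934).

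Kinesins and dyneins also changed in both directions, with 7 of 23 members higher, 9 lower and a median of -0.51. The shares over all genes were 7.61% higher and 8.15% lower. Kif2c and Kif22, kinesins of chromosome movement, differed by 2.35 ± 0.22 and 2.33 ± 0.31. Kif26b, an atypical kinesin, had levels of 9.13, 9.5 and 9.35 in GFP-high cells, against 7.28, 7.23 and 7.7 in GFP-low cells. Kif5a, a heavy chain of axonal kinesin, had 7.56, 7.97 and 7.28 in GFP-high cells, against 10.63, 10.55 and 10.52 in GFP-low cells, and Dync1i1, the neuronal intermediate chain of dynein, had 5.39, 5.94 and 6.14 in GFP-high cells, against 9.49, 9.48 and 8.61 in GFP-low cells. The number lower was 4 when GFP-high replicate 1 was left out and 5 when it was GFP-high replicate 3. With GFP-high replicate 2 and GFP-low replicate 3 both left out 6 were higher and 3 lower, and with the mean of probe sets 8 were higher and 6 lower.

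A set of 30 pairs of related genes was read side by side, each with a member known from progenitors or from all cells first and a member known from neurons or a second role after it. Of the 28 pairs measured the first gene was higher in 14 and lower in 2, and the second was higher in none and lower in 18, beside 7.61% higher and 8.15% lower over all genes. In 7 pairs the first gene rose and the second fell. In the BAF chromatin remodelling complex Ss18 had levels of 10.32, 10.39 and 10.54 in GFP-high cells, against 9.3, 9.42 and 9.54 in GFP-low cells, and its neuronal counterpart Ss18l1 had 8.02, 7.9 and 7.79 in GFP-high cells, against 9.73, 9.95 and 9.52 in GFP-low cells. The neuronal subunits Actl6b and Dpf1 fell too (-2.79 ± 0.25 and -2.83 ± 0.28), whereas their progenitor counterparts Actl6a and Phf10 differed by 0.78 ± 0.27 and 0.24 ± 0.17, neither of them called. For glucose uptake Slc2a1, the widespread transporter, had levels of 9.41, 9.51 and 9.37 in GFP-high cells, against 8.09, 8.19 and 8.6 in GFP-low cells, and Slc2a3, the neuronal one, had 7.34, 7.36 and 7.32 in GFP-high cells, against 9.16, 9.11 and 9.14 in GFP-low cells. The SNARE Snap23 had 7.91, 7.79 and 7.72 in GFP-high cells, against 6.62, 5.5 and 6.26 in GFP-low cells, opposite to Snap25. Its adjusted p was 0.0921 with GFP-high replicate 2 and GFP-low replicate 3 both left out.

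Ank3, or ankyrin G, which organises the axon initial segment, was lower (-2.93 ± 0.37), and Ank2 was not called (-0.29 ± 0.18). Prkcz fell while Prkci, the other atypical protein kinase C, had levels of 9.63, 9.71 and 9.5 in GFP-high cells, against 9.23, 9.39 and 9.47 in GFP-low cells and was not called. Among stathmins and tubulins Stmn1 and Tubb5, abundant in dividing and in young neural cells, differed by -0.3 ± 0.16 and -0.38 ± 0.16, neither called, beside the falls of Stmn2 and Tubb3. Sox2 rose and Sox11, a Sox factor of newborn neurons, fell (-1.18 ± 0.16). The G protein subunit Gnai2 rose (1.09 ± 0.18) and Gnao1 fell (-1.51 ± 0.28), though Gnao1 was not past the threshold as a mean of its 3 probe sets (adjusted p = 0.408). Elavl1 rose and Elavl3 fell by the chosen probe sets (2.37 ± 0.18 and -1.3 ± 0.16), but of the 6 probe sets of Elavl1 2 were higher and 2 lower, and their mean gave an adjusted p of 0.316. The probe sets of Klc1 disagreed as well, with 1 higher and 1 lower.

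**Figure D5:**
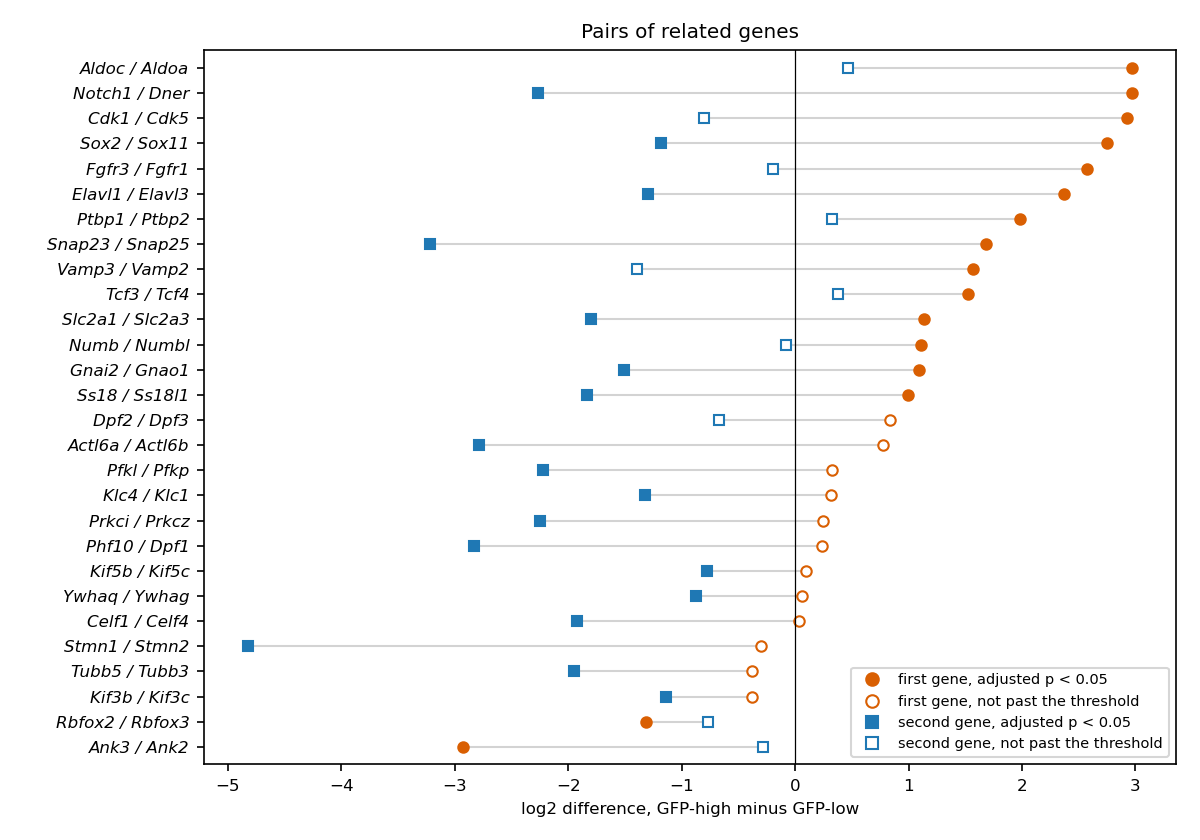
Difference (GFP-high minus GFP-low, log2) of the 2 genes of each of 28 pairs, ordered by the first gene. Orange circles are the first and blue squares the second gene, filled where the adjusted p was under 0.05. No second gene was called higher, and 18 lie filled to the left of 0.

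Of the metabolic lists, glycolysis moved in both directions, with 7 of 16 members higher and 4 lower (median 0.55). Besides the glucose transporters, Eno2, the neuronal enolase, had levels of 6.01, 6.09 and 6.61 in GFP-high cells, against 8.38, 8.76 and 7.98 in GFP-low cells, and Hk1, a hexokinase, had 7.3, 7.59 and 7.96 in GFP-high cells, against 9.4, 8.94 and 8.92 in GFP-low cells. Aldoa, the muscle-type aldolase, differed by 0.47 ± 0.2 and was not called. Hk1 had an adjusted p of 0.0711 with GFP-high replicate 2 and GFP-low replicate 3 both left out. The number higher was 3 when GFP-high replicate 1 or GFP-high replicate 3 was left out and 4 in the absence of GFP-low replicate 1. It was also 4 in the fit that leaves out an array of each group. The vacuolar ATPase and lysosome list had 8 of 21 members lower and 1 higher (median -0.36), and the number lower was between 2 and 4 without any 1 of the arrays other than GFP-low replicate 3, and 3 with that array and GFP-high replicate 2 both left out. The 1 higher, Lamp2, a lysosomal membrane protein, was not called without any single array (adjusted p up to 0.13). Atp6v0a1, a subunit of the proton pump, had levels of 7.19, 6.99 and 6.99 in GFP-high cells, against 8.45, 8.4 and 8.1 in GFP-low cells, and the mean of its 4 probe sets was not past the threshold (adjusted p = 0.319).

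Few housekeeping genes were called. Over all genes 7.61% were called higher and 8.15% lower. Among 30 genes of the mitochondrial respiratory chain 0 were called by limma in either direction, with differences of -0.63 to 0.67 and a median of -0.06. Cytosolic ribosomal proteins had 1 of 20 members higher and none lower (median 0.14), but 19 of the 20 differences were above 0 and the groups did not overlap in 12, GFP-high above, against 17.1% of all genes. The 1 called member, Rps6, differed by 0.76 ± 0.19 and missed the threshold without any single array but GFP-low replicate 3 (adjusted p up to 0.124). Of 20 nucleolar and ribosome biogenesis genes 3 were higher and none lower (median 0.32). Dkc1, the pseudouridine synthase dyskerin, had levels of 9.39, 9.05 and 9.26 in GFP-high cells, against 8.04, 8.01 and 7.91 in GFP-low cells, and Utp20, a component of the small-subunit processome, had 8.06, 8.02 and 8.18 in GFP-high cells, against 6.87, 6.69 and 7.08 in GFP-low cells.

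Markers of other cells that a cortical sort could hold were mostly at background. No member was called among those of the oligodendrocyte lineage (7 measured, 5 at or below background), endothelium (10, 7), pericytes and meninges (10, 8), microglia and macrophages (10, 8), erythroid cells (7, 5), and choroid plexus and hem (8, 8). Their summed intensities overlapped between the groups. The oligodendrocyte sums were 152 to 230 in GFP-high and 173 to 293 in GFP-low cells, and the endothelial sums 124 to 254 in GFP-high and 117 to 318 in GFP-low cells. Pericyte and meningeal markers summed to 127 to 219 in GFP-high and 108 to 294 in GFP-low cells, and microglial markers to 131 to 263 in GFP-high and 155 to 232 in GFP-low cells. Erythroid sums were 154 to 241 in GFP-high and 206 to 222 in GFP-low cells, and choroid plexus sums 33.8 to 157 in GFP-high and 39.1 to 152 in GFP-low cells. Interneuron and ventral markers summed to 110 to 194 in GFP-high cells and 279 to 381 in GFP-low cells, without overlap. Of those 14 genes 12 were at or below background, and 1, Gad2, itself at or below background, was called lower, a call that was lost without any 1 of the arrays other than GFP-low replicate 3 (adjusted p up to 0.0911). Gad1 had levels of 4.58, 5.04 and 4.67 in GFP-high cells, against 5.33, 5.51 and 6.02 in GFP-low cells and was not called. Cajal-Retzius markers, of the earliest neurons at the cortical surface, summed to 217 to 246 in GFP-high cells and 438 to 637 in GFP-low cells, with 6 of 8 at or below background and 4 of 8 differences above 0. Reln was called lower, with 6.46, 6.78 and 6.8 in GFP-high cells, against 8.24, 8.63 and 9.05 in GFP-low cells. Its intensities, which are part of those sums, were 67.5 to 93.2 in GFP-high and 292 to 535 in GFP-low cells. That gap is about as wide as the gap between the sums. Ebf3 was called higher (0.77 ± 0.2), but missed the threshold without 5 of the 6 arrays in turn (adjusted p up to 0.145). What part such cells have in the genes lower in GFP-high cells was not tested.

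Immediate early genes, which cell dissociation can induce, had 1 of 12 members higher and 1 lower, near the shares over all genes (7.61% and 8.15%). Jun had levels of 10.3, 10.14 and 10.34 in GFP-high cells, against 8.81, 9.21 and 8.66 in GFP-low cells. Junb had 4.89, 4.36 and 4.89 in GFP-high cells, against 6.59, 6.52 and 5.75 in GFP-low cells, and its GFP-high arrays were all below background. Fos, with 10.59, 10.59 and 10.84 in GFP-high cells, against 10.13, 9.81 and 9.04 in GFP-low cells, was not called (adjusted p = 0.0615). Egr1, read after its values were seen, had 9.38, 7.68 and 9.23 in GFP-high cells, against 8.35, 8.86 and 6.99 in GFP-low cells, and the lowest array of each group was the one with its lowest median intensity.

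The same GFP contrast in Prominin-selected E14 cells (GFP-high n = 4, GFP-low n = 3) differed from the one described here in 1398 genes (7.68% of those tested), by limma's test of the difference of the 2 contrasts, with all 17 arrays in the fit. All Prominin-selected arrays carry the labelling kit of GFP-high replicate 1, and for the GFP-low cells kit and selection cannot be told apart. The genes given are the 4 largest rises and the 4 largest falls of the contrast without the gate, a choice that itself favours a larger contrast there, so their values are a description. The contrast was larger here for Tk1 and Uhrf1 (differences of contrasts 2.66 and 2.49) and for Gas1 and Sox3 (1.95 and 1.93). Tk1 averaged 9.12 in GFP-high and 5.73 in GFP-low cells here, against 7.92 in GFP-high and 7.18 in GFP-low cells after Prominin selection. On the neuronal side Sla, Stmn2, Ina and Mapt fell further here, by -3.82, -3.09, -3.46 and -3.64. Stmn2 averaged 7.54 in GFP-high and 12.36 in GFP-low cells, against 9.8 and 11.54 in the Prominin-selected GFP-high and GFP-low cells.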

How the data were processed

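Total RNA of sorted cells was biotin-labelled and hybridised to Affymetrix arrays with 45101 probe sets, per the labels' protocols. The authors deposited 1 linear intensity per probe set and array, and the values show equal trimmed means across arrays. How probe signals were summarised, and to what target they were scaled, is not given in the sources used here. Array depth has no counts, so the number of arrays limits the precision. Values were taken as log2(intensity + 16), quantile normalised over the 17 arrays and reduced to 1 probe set per gene, that with the highest mean over the 17 arrays. Probe sets were named from GEO's platform annotation; those with several genes (932) or none listed (9160) and 64 control probe sets stayed out, which left 18193 genes. The 3 GFP-high and 3 GFP-low arrays were compared with limma 3.58.1 in R 4.3.3, two-sided, with Benjamini-Hochberg adjustment over all genes, and the procedure was tested on simulated data. Figures used matplotlib 3.10.9.

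Genes named were a set of markers, the 12 largest rises and 12 largest falls, members of the lists, and pairs with a called gene. Per list, up to 5 called members were named, with up to 3 opposing ones, or the 2 of lowest p where none was called. The rises, the falls and those 5 were taken only from called genes. Their groups also had to be without overlap and their higher mean above background. Members and lists were chosen with earlier results of these data known. Promoters and mature microRNAs came from RefSeq tables, and only the first listed start site of a gene was used. Alternatives were other pseudocounts, normalisations, probe set rules and fits, a block for replicate number and leaving out each array.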

Additional observations from a re-analysis of the deposited data

Results flagged for a closer look

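The GFP contrast described here differed from that in Prominin-selected E14 cells for the 4 largest rises and 4 largest falls. These genes were chosen for their large contrast here, which favours such a difference, so the values support nothing beyond their description. The difference was 2.66 for Tk1, 2.49 for Uhrf1, 1.95 for Gas1 and 1.93 for Sox3 (log2, contrast without the Prominin gate minus contrast with it). For Sla it was -3.82, for Stmn2 -3.09, for Ina -3.46 and for Mapt -3.64. Mapt averaged 7.55 in GFP-high and 12.23 in GFP-low cells without the gate, against 8.5 in GFP-high and 9.54 in GFP-low cells with it.

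Outside the genes tested, 267 of the 9160 probe sets with no listed gene were called between GFP-high and GFP-low cells, 129 higher and 138 lower. That is a smaller share than the 15.8% called among the genes tested.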

How the results depend on the processing

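No alternative turned the direction of a named gene that was called here or under that alternative. The 2867 calls came to 2114 to 4096 under the other pseudocounts, normalisations, probe set rules and fits, within 1.5 times. Leaving out single arrays gave 1842 to 2858 calls: 1842 when GFP-high replicate 1 was left out and 1896 when it was GFP-high replicate 3, both of them more than 1.5 times below. With GFP-high replicate 2 and GFP-low replicate 3 both left out, a setting chosen after seeing the data, 1741 genes were called. The cause of the smaller counts was not tested. Same-numbered samples did not deviate together (correlations 0.04, -0.14 and -0.13), so the numbers are not treated as pairs. With the replicate block 1867 genes were called, more than 1.5 times below.

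The balance of higher against lower calls did turn in places. Without further normalisation 1437 genes were higher and 1396 lower, against 1384 and 1483. Motors had 7 higher and 9 lower, but 8 and 6 with the mean of probe sets, 7 and 4 with the replicate block, and 6 and 3 with GFP-high replicate 2 and GFP-low replicate 3 both left out. Glycolysis had 7 higher and 4 lower, but 2 and 4 with the replicate block, under which the vacuolar and lysosome list had 2 lower, against 8. With those arrays both left out mitosis had 27 members higher, replication 21 and chromatin 7, and 30 named genes lost their call.

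The 1398 genes of the difference from Prominin-selected cells stayed within 1.5 times throughout, with 1092 under the replicate block and 1031 to 1726 without single arrays. Of 210 named genes that were called, 185 kept the call without each single array in turn, and 162 under every alternative run. Signal over background is the limit for dim genes: 7042 genes had both means at or below background.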
